A study of Mus musculus with 30 samples.

Results

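The 9 genes of the mouse HoxD cluster, *Hoxd1*, *Hoxd3*, *Hoxd4*, *Hoxd8*, *Hoxd9*, *Hoxd10*, *Hoxd11*, *Hoxd12* and *Hoxd13*, were followed in forelimb buds after a transient block of WNT signaling. They were chosen by gene symbol and joined by Ensembl identifier to the count table, where all 9 had a value among 50833 genes. Polyadenylated RNA was sequenced from wild-type Swiss Albino forelimb buds of embryos whose mothers were injected at E10.5 with DMSO, the wild-type control, or with Wnt-C59 (C59). C59 inhibits porcupine, the enzyme that acylates WNT ligands for secretion. Buds were collected 1, 6, 12, 18 or 24 h later, which gave 10 groups of 3 libraries, 30 libraries in all. DMSO was given in PBS, whereas C59 was given in a vehicle that also held methylcellulose and Tween-20, so an action of C59 and one of its vehicle cannot be told apart. According to the study's methods, RNA of a replicate came from a single pair of buds, in which case p-values measure the spread between embryos. Summed FPKM of Y-linked genes at 1 h was 7.66, 9.03 and 0.0469 in DMSO and 37.0, 38.2 and 21.2 in C59. Whether each library held a single embryo was not tested. The study's methods describe replicates from several litters, and the labels used here do not tie a library to its litter.

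Hox genes encode homeodomain transcription factors and lie in clusters whose gene order follows the order in which they are used in time and along body axes. In the limb bud, HoxD genes are first used in the proximal bud, where the stylopod and zeugopod form, and the genes at the *Hoxd13* end are then used in the distal bud, which forms the autopod with the digits. *Hoxd13* and *Hoxd12* mark the posterior and distal bud, and mutations in *Hoxd13* cause fused and extra digits.

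Totals ranged from 18188636 to 38974885 counts per library. Levels are given as CPM, counts scaled to library size. The WNT target *Axin2* ranged from 104 to 126 CPM in DMSO libraries, and in C59 libraries from 105 to 111, 26.5 to 29.2, 38.6 to 43.7, 89.1 to 105 and 99.2 to 114 CPM over the successive times. Forelimb identity was checked with *Tbx5*, which averaged 53.4 FPKM, against 3.44 FPKM for the hindlimb gene *Tbx4* and 0.724 FPKM for *Pitx1*. Of 7 neural tube markers, *Olig2* was at 0 in 15 libraries and *Nkx2-2* in 24. C59 12 h replicate 3 stood apart from the other 2 libraries of its group: its summed FPKM was 194 for 7 ectoderm markers, none of them at 0, against 143 and 146, and 45.8 for 6 somite and axial markers against 66.7 and 64.4. C59 18 h replicate 3 lay farthest from its group, with a median absolute deviation of 0.273 on the log2 scale. HoxD results that pass or fail by either library are also given without it. In whole buds, fewer cells of a kind and less RNA per cell cannot be told apart.

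The cluster spans 96.8 kb of chromosome 2 on the plus strand (mm10, 74668310 to 74765142). *Hoxd13* (ENSMUSG00000001819) lies at one end, from 74668310 to 74671599. *Hoxd12* (ENSMUSG00000001823) starts 6.7 kb away, at 74675013. *Hoxd11* follows at 14.01 kb, *Hoxd10* at 23.61 kb, *Hoxd9* at 29.42 kb, *Hoxd8* at 36.3 kb, *Hoxd3* at 43.62 kb, *Hoxd4* at 53.67 kb and *Hoxd1* at 94.67 kb. *Hoxd3* and *Hoxd4* overlap each other, and the antisense gene *Hoxd3os1* overlaps *Hoxd8* and *Hoxd3*. The study computed FPKM with a setting for unstranded libraries, and whether counting used strand was not stated. Reads of these genes therefore cannot be told apart where they overlap, and their counts and FPKM are uncertain.

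Because C59 acts on WNT signaling, the 250 bases before 1 RefSeq start per gene (GRCm38.p6) were searched. The search was for the 6-letter cores CTTTGA and CTTTGT of TCF/LEF sites, on both strands. *Hoxd11* had 2 RefSeq starts, and only that nearest to its deposited gene start was searched. The promoters of *Hoxd13* and *Hoxd12*, the genes with the largest later differences, are shown beside those of *Hoxd11*, which lies next to them in the cluster, and of *Hoxd8*, which held 2 matches. All are given 5′ to 3′ on the plus strand, and capitals mark a match.
Hoxd13, chr2:74667975-74668224: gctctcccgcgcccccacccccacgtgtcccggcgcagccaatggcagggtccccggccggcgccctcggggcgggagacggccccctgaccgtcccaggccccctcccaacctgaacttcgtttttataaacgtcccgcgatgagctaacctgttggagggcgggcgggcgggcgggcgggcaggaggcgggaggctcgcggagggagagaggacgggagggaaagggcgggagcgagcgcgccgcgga
Hoxd12, chr2:74674763-74675012: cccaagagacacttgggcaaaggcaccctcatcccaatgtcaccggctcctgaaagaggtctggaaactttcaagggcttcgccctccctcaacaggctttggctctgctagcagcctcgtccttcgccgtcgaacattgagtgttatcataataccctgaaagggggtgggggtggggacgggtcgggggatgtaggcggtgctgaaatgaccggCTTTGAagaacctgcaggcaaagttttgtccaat
Hoxd11, chr2:74682073-74682322: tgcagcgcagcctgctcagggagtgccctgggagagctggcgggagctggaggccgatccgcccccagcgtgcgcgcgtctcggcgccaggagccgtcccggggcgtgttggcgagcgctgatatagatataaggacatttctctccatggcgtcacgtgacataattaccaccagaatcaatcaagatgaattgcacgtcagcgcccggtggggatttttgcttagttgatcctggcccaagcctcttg
Hoxd8, chr2:74704365-74704614: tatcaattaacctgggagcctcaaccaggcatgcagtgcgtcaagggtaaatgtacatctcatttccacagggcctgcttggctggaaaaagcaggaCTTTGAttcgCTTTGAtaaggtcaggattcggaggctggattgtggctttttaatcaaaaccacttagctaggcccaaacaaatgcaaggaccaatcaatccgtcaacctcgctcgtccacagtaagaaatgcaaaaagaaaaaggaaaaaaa
*Hoxd12* and *Hoxd3* held 1 match each and *Hoxd8* held 2, whereas the windows of *Hoxd13*, *Hoxd11*, *Hoxd10*, *Hoxd9*, *Hoxd4* and *Hoxd1* held none of these letters. Among 32851 promoters of this length, 9075 or 27.6% held at least 1 match. The *Hoxd13* window was rich in G and C, with 74.4% against a median of 52.4% over all promoters, and the *Hoxd8* window had 44.4%. These matches describe the sequence and are not measured binding sites.

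In DMSO forelimb buds, RNA of *Hoxd13* and *Hoxd12* rose over the day while that of 6 genes farther along the cluster fell. Of 9 genes, 2 were higher and 6 were lower at 24 h than at 1 h (edgeR, adjusted p < 0.05), in a comparison in which 50.6% of all genes tested passed, 26.8% higher and 23.8% lower. The median log2 fold change was -0.61 over the 9 genes and 0.00 over all genes. *Hoxd13*, needed for digit formation, was at 121, 107 and 103 CPM at 1 h and at 341, 327 and 329 CPM at 24 h. It rose by 1.59 ± 0.12 on the log2 scale (SE, edgeR adjusted p = 8.47e-12). *Hoxd12*, its neighbour, was at 85.2, 79.9 and 76.0 CPM at 1 h and at 153, 155 and 149 CPM at 24 h, and rose by 0.92 ± 0.08 on the log2 scale (edgeR adjusted p = 4.5e-10). For both genes every DMSO library of 24 h lay above those of 1 h, as was the case for 32.8% of all genes.

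*Hoxd11*, which acts with *Hoxa11* in forming the radius and ulna, lay between the rising and the falling genes. Its DMSO mean was highest at 12 h, with means over the 5 times of 148 ± 4.37, 175 ± 3.94, 183 ± 20.4, 145 ± 9.47 and 124 ± 9.82 CPM (SD, n = 3). From 1 h to 24 h it fell by 0.25 ± 0.08 on the log2 scale (edgeR adjusted p = 0.0126). The genes beyond it fell further. *Hoxd10* fell by 0.70 ± 0.09 (edgeR adjusted p = 5.58e-07), *Hoxd9* by 1.21 ± 0.11 (2.89e-10), *Hoxd8* by 1.03 ± 0.11 (1.07e-08) and *Hoxd4* by 1.42 ± 0.21 (2.15e-06) on the log2 scale. *Hoxd9*, which patterns the proximal limb with *Hoxa9*, was at 121, 138 and 124 CPM at 1 h and at 56.8, 50.1 and 58.3 CPM at 24 h. *Hoxd4* was at 32.9, 39.4 and 26.8 CPM at 1 h and at 10.6, 14.3 and 11.9 CPM at 24 h. *Hoxd3* fell by 0.61 ± 0.25 on the log2 scale (edgeR adjusted p = 0.0444), a call lost in 4 of 6 fits that left out a library. *Hoxd1*, at the far end, had 4 to 28 counts per library and a log2 fold change of 0.65 ± 0.41 (edgeR adjusted p = 0.19), so a change was not detectable at this depth.

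**Figure D1:**
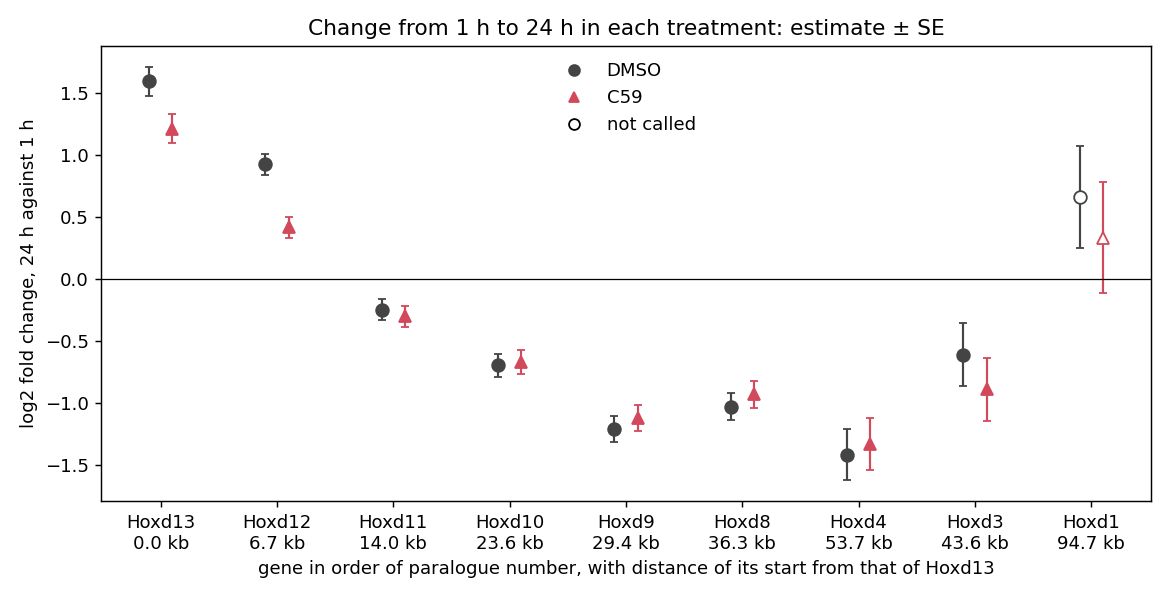
Log2 fold change from 1 h to 24 h (vertical axis, estimate ± SE) of each HoxD gene, in DMSO and in C59, with genes ordered along the horizontal axis by paralogue number and labelled with their distance from *Hoxd13* in kb. Filled points have an adjusted p below 0.05. *Hoxd13* and *Hoxd12* lie above 0 in both treatments, at 1.59 and 0.92 in DMSO and 1.21 and 0.41 in C59, and *Hoxd11* to *Hoxd3* lie below 0.

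The steps between times showed when these differences arose. From 1 h to 6 h, 3 of 9 genes passed in DMSO, against 4.30% of all genes. *Hoxd13* rose by 0.80 ± 0.12 and *Hoxd12* by 0.55 ± 0.08 on the log2 scale, and *Hoxd4* fell by 0.81 ± 0.20 (edgeR adjusted p = 8.79e-05, 0.000146 and 0.0183). The *Hoxd4* call was lost in 5 of 6 fits that left out a library. From 6 h to 12 h, 3 genes passed, against 2.44% of all genes. *Hoxd13* rose by a further 0.52 ± 0.11 and *Hoxd12* by 0.40 ± 0.08, and *Hoxd9* fell by 0.47 ± 0.11 (edgeR adjusted p = 0.0108, 0.00567 and 0.0115). The *Hoxd13* step was lost without DMSO 6 h replicate 1, DMSO 6 h replicate 3 or DMSO 12 h replicate 3 (adjusted p up to 0.0584), and that of *Hoxd9* without DMSO 6 h replicate 1 or DMSO 12 h replicate 2 (adjusted p up to 0.131). *Hoxd12* then levelled, at means of 156 ± 6.01, 155 ± 7.91 and 152 ± 3.15 CPM (SD, n = 3) over the last 3 times. From 12 h to 18 h only *Hoxd11* passed, against 8.91% of all genes, and fell by 0.33 ± 0.08 (edgeR adjusted p = 0.00972), which was lost without DMSO 12 h replicate 3 (0.0879) or DMSO 18 h replicate 2 (0.0745). From 18 h to 24 h only *Hoxd10*, also used in both the zeugopod and the digits, passed, against 7.95% of all genes, and fell by 0.42 ± 0.09 (edgeR adjusted p = 0.00497).

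**Figure D2:**
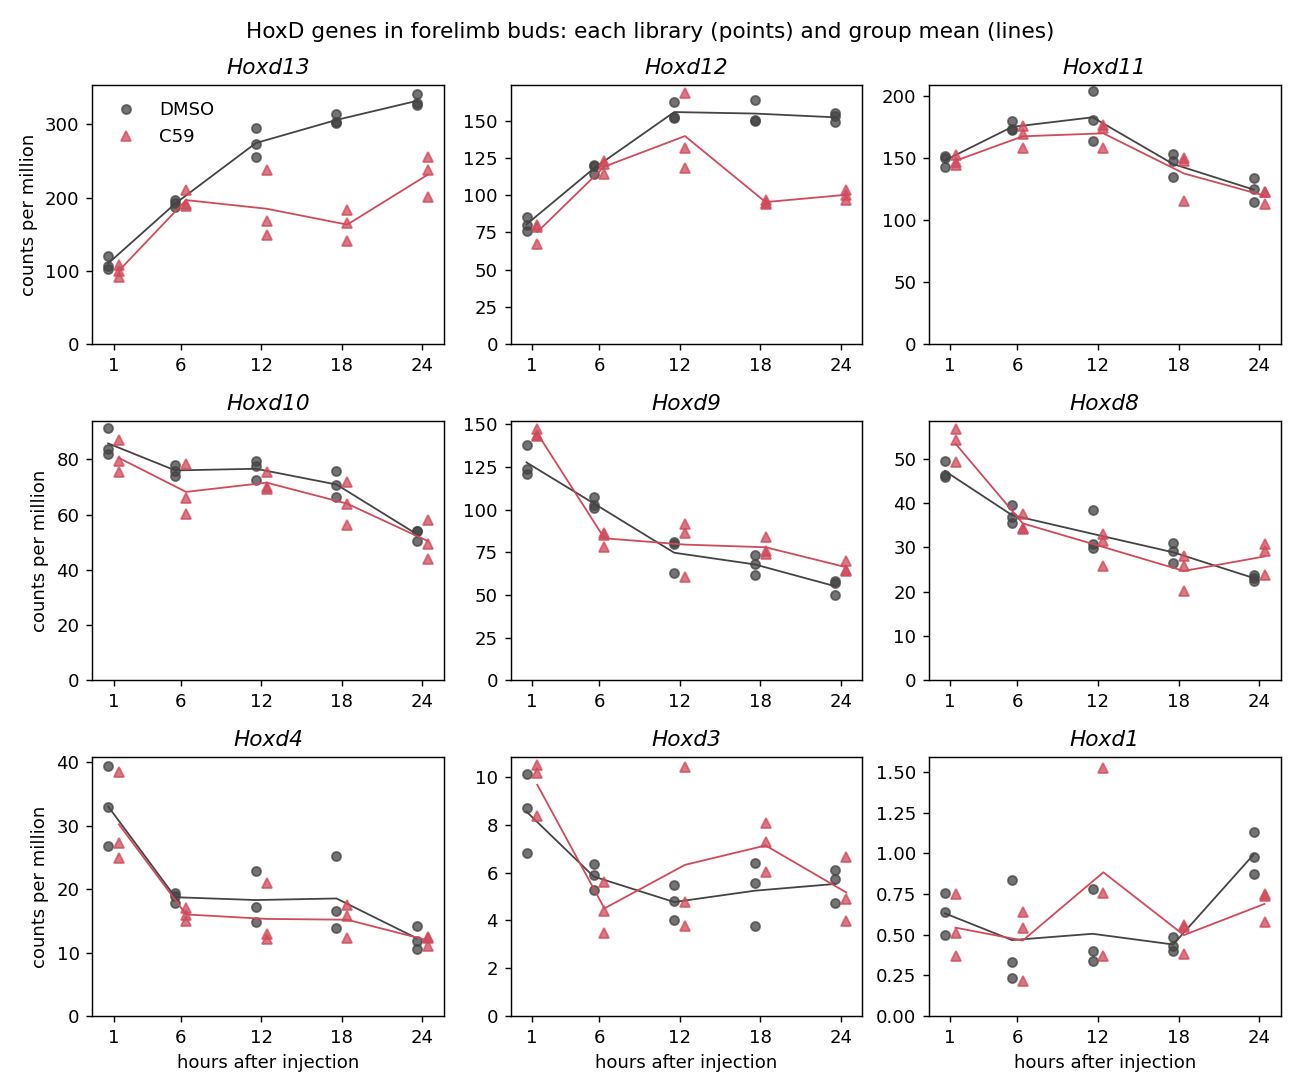
CPM of each HoxD gene (vertical axis, from 0, a scale per gene) against hours after injection (horizontal axis), with a point for each library and a line through the group means. *Hoxd13* in DMSO climbs from 103 to 121 CPM at 1 h to 327 to 341 CPM at 24 h, and C59 libraries lie lower from 12 h on; *Hoxd11* libraries of both treatments overlap at every time.

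Levels of different genes were compared only in FPKM, which are scaled by transcript length. At 1 h in DMSO the order was *Hoxd11* (53.1 FPKM), *Hoxd9* (42.9), *Hoxd13* (31.3), *Hoxd10* (30.9), *Hoxd12* (22.8), *Hoxd8* (14.1), *Hoxd4* (10.01), *Hoxd3* (2.56) and *Hoxd1* (0.260), and of these neighbours only *Hoxd13* and *Hoxd10* overlapped. At 24 h the order was *Hoxd13* (99.8 FPKM), *Hoxd12* (45.6), *Hoxd11* (45.5), *Hoxd9* (19.3), *Hoxd10* (19.0), *Hoxd8* (7.31), *Hoxd4* (4.01), *Hoxd3* (1.58) and *Hoxd1* (0.430), and *Hoxd12* overlapped *Hoxd11* and *Hoxd9* overlapped *Hoxd10*. *Hoxd13* thus moved from place 3 to place 1. It stood level with *Hoxd11* at 12 h, where the libraries of both genes overlapped (78.4 and 67.8 FPKM), and above it at 18 h (90.7 and 51.2 FPKM).

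With C59, *Hoxd13* stood above *Hoxd11* without overlap at a later time than in DMSO, but their overlap began earlier. In DMSO at 6 h *Hoxd11* lay above *Hoxd13* without overlap (64.5 and 54.8 FPKM). In C59 their libraries overlapped from 6 h to 18 h (means of 60.7 and 56.3, 65.3 and 56.0, and 52.7 and 48.9 FPKM at the successive times). There *Hoxd13* stood above *Hoxd11* only at 24 h (70.5 and 44.7 FPKM). These orders were not tested. As a share of the summed FPKM of the 9 genes, *Hoxd13* made up 15.03%, 23.4%, 30.1%, 36.0% and 41.1% in DMSO at the 5 times, and 13.4%, 25.4%, 23.6%, 24.8% and 34.5% in C59. *Hoxd11*, *Hoxd12* and *Hoxd13* together made up 51.5% ± 0.814 (SD, n = 3) in DMSO and 49.9% ± 0.392 in C59 at 1 h, and 78.7% ± 0.512 in DMSO and 71.7% ± 0.316 in C59 at 24 h. The summed FPKM of the 9 genes was 208, 234, 260.4, 252 and 243 in DMSO, and 209.6, 221, 235, 196 and 204 in C59. These shares describe the levels and were not tested.

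**Figure D3:**
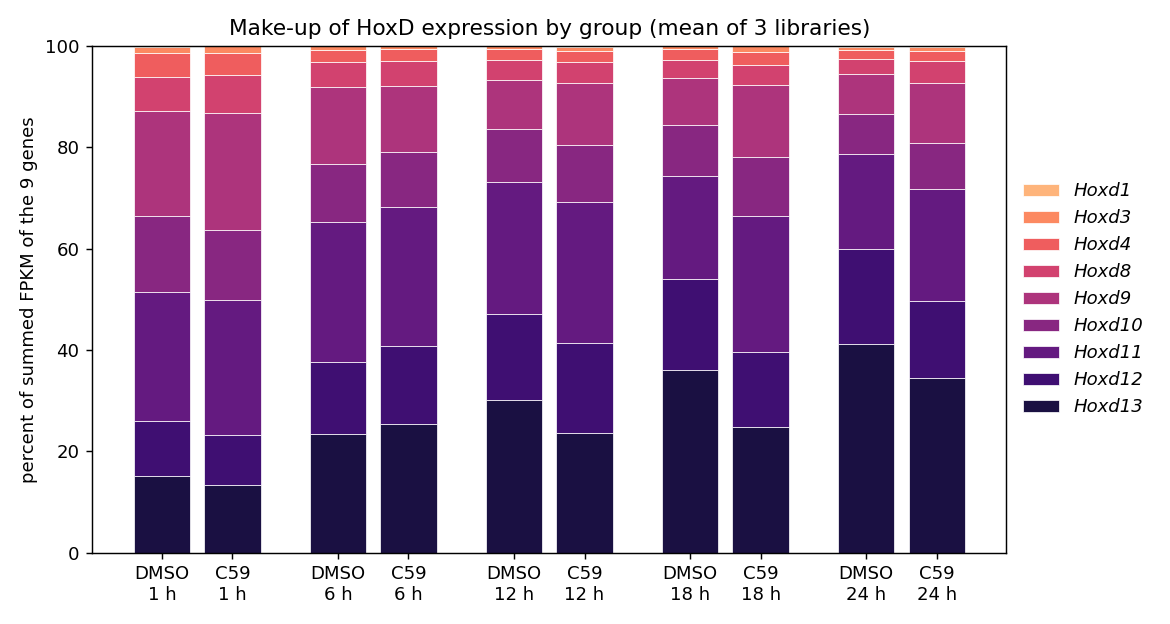
Share of each HoxD gene in the summed FPKM of the 9 genes (vertical axis, percent, mean of 3 libraries) by treatment and hours after injection (horizontal axis). The *Hoxd13* share grows from 15.03% to 41.1% in DMSO and from 13.4% to 34.5% in C59, where it is 24.8% at 18 h.

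The comparison of C59 with DMSO at each time asked how the block of WNT secretion and the recovery from it showed in HoxD RNA. Among differences that passed, the largest were in *Hoxd13* and *Hoxd12*, with *Hoxd13* lower in C59 from 12 h on and *Hoxd12* from 18 h on. *Hoxd9* was lower at 6 h, and *Hoxd11*, *Hoxd10*, *Hoxd8*, *Hoxd4* and *Hoxd3* passed the test at no time. None of the HoxD genes passed with a difference above 1 on the log2 scale as well, against 0.283%, 1.17%, 4.95%, 1.29% and 0.819% of all genes at the 5 times. The counts of alternatives given for each gene leave out this added fold threshold. The DMSO libraries of each time served only that time.

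At 1 h 0 of 9 genes passed in edgeR, against 2.75% of all genes, and 0 passed in DESeq2. *Hoxd9* was at 144, 147 and 143 CPM in C59 and at 121, 138 and 124 CPM in DMSO, without overlap, as were 10.4% of all genes in that direction. Its log2 fold change of 0.18 ± 0.05 did not pass (edgeR adjusted p = 0.0695), but did without DMSO 1 h replicate 2 (0.24, adjusted p = 0.0221). Before adjustment, *Hoxd9* and *Hoxd8* were the genes with an edgeR p below 0.05 (0.00272 and 0.0131).

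At 6 h, when *Axin2* was lowest, 1 of 9 genes passed, against 19.6% of all genes and 11.4% lower. *Hoxd9* was at 86.4, 78.1 and 85.0 CPM in C59 and at 107, 103 and 101 CPM in DMSO. All C59 libraries lay below all DMSO libraries, as for 19.3% of all genes. It fell by 0.32 ± 0.05 on the log2 scale (95% interval -0.44 to -0.21, edgeR adjusted p = 0.000797), or by 20.1%. A smaller p than that of *Hoxd9* was found for 486 of 13100 genes. Apart from the added fold threshold, the call held in 16 of 17 alternatives, the exception being log2(FPKM + 0.1) with limma (adjusted p = 0.0655). Summed Y-linked FPKM was 0 in the 3 DMSO libraries at 6 h and 19.8 to 33.2 in the C59 libraries, so sex and treatment cannot be told apart there. At 1 h it was 0.0469 to 9.03 in DMSO and 21.2 to 38.2 in C59, also without overlap. The summed FPKM of 6 limb mesenchyme markers, none at 0, was 308 to 329 in C59 and 511 to 547 in DMSO, with 5 of 6 lower. Muscle markers summed to 43.0 to 48.6 FPKM in C59 and 28.0 to 29.8 in DMSO, with 2 of 6 higher and 1 lower. Of 5 somite and axial markers tested, 2 were higher and 2 lower, and of 7 ectoderm markers 1 was higher and 2 lower. Of 5 blood markers tested 2 were lower, and of 5 endothelium markers 0 passed. The part of these markers in the result was not tested. *Hoxd13* and *Hoxd12* at 6 h had log2 fold changes of 0.03 (95% interval -0.08 to 0.14) and 0.01 (-0.09 to 0.11). *Hoxd13* was at 210.0, 188 and 192 CPM in C59 and at 192, 197 and 187 CPM in DMSO, so the treatments overlapped. *Hoxd4* was lower in all 3 C59 libraries, at 17.1, 15.01 and 16.0 CPM against 17.8, 19.4 and 18.9 CPM, but did not pass (log2 fold change -0.23 ± 0.09, edgeR adjusted p = 0.0767).

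At 12 h, 1 of 9 genes passed, against 47.5% of all genes and 25.5% lower. *Hoxd13* was at 149, 168 and 238 CPM in C59 and at 256, 273 and 295 CPM in DMSO. It fell by 0.57 ± 0.14 on the log2 scale (95% interval -0.87 to -0.27, edgeR adjusted p = 0.00577), or by 32.6%. A smaller p than that of *Hoxd13* was found for 3846 of 13324 genes. The third C59 library, the one that stood apart, lay nearest to the DMSO libraries, just below the lowest of them, and without it the log2 fold change was -0.78 (adjusted p = 2.22e-05). On FPKM the call was lost with limma on log2(FPKM + 0.1) (-0.51, adjusted p = 0.0695) and with limma without a filter (-0.50, adjusted p = 0.077). *Hoxd12* was at 118, 132 and 169 CPM in C59 and at 152, 152 and 163 CPM in DMSO, and its log2 fold change of -0.16 ± 0.10 did not pass (edgeR adjusted p = 0.238). Without C59 12 h replicate 3 it passed, at -0.30 (adjusted p = 0.00255). In that library *Hoxd9* was lowest of its group, at 60.5 CPM against 91.5 and 86.5. *Hoxd4* also depended on 1 library, with -0.27 over all libraries (edgeR adjusted p = 0.314) and -0.54 without C59 12 h replicate 1 (0.025). *Hoxd11* had -0.11 (edgeR adjusted p = 0.288), and -0.19 without DMSO 12 h replicate 2 (0.0495).

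At 18 h, 2 of the 8 genes tested passed, both lower, against 7.08% of all genes and 3.62% lower. *Hoxd13* was at 184, 166 and 140.3 CPM in C59 and at 302, 303 and 314 CPM in DMSO. The groups were far apart, and every C59 library lay below every DMSO library, as for 19.1% of all genes. It fell by 0.89 ± 0.11 on the log2 scale (95% interval -1.13 to -0.64, edgeR adjusted p = 0.00328), or by 46.0%. *Hoxd12* was at 94.9, 97.0 and 94.0 CPM in C59 and at 150.5, 149.8 and 164 CPM in DMSO. It fell by 0.68 ± 0.08 (95% interval -0.87 to -0.49, edgeR adjusted p = 0.00343), or by 37.6%, and its C59 libraries were close together. Both calls held in the 17 alternatives other than the added fold threshold. Without C59 18 h replicate 3 the values were -0.79 and -0.67 (adjusted p = 0.000379 and 0.000589). Among 13413 genes, 69 had a smaller p than *Hoxd13* and 71 a smaller p than *Hoxd12*. *Hoxd1* was not tested at 18 h because its counts did not pass the filter.

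At 24 h, 3 of 9 genes passed, against 6.44% of all genes, 3.56% lower and 2.88% higher. *Hoxd13* was at 201, 255 and 238 CPM in C59 and at 341, 327 and 329 CPM in DMSO. It fell by 0.52 ± 0.08 on the log2 scale (95% interval -0.68 to -0.35, edgeR adjusted p = 0.00214), or by 30.1%. On FPKM it did not pass with limma on log2(FPKM + 0.1) (adjusted p = 0.0843) or without a filter (0.0787). *Hoxd12* was at 103, 100.4 and 96.8 CPM in C59 and at 153, 155 and 149 CPM in DMSO. It fell by 0.60 ± 0.06 (95% interval -0.72 to -0.47, edgeR adjusted p = 0.000103), or by 33.8%, and passed in the 17 alternatives other than the added fold threshold. Only 13 of 13675 genes had a smaller p, and 77 had a smaller p than *Hoxd13*. *Hoxd9* went the other way. It was at 64.2, 69.8 and 64.8 CPM in C59 and at 56.8, 50.1 and 58.3 CPM in DMSO, and was higher by 0.27 ± 0.07 (95% interval 0.11 to 0.44, edgeR adjusted p = 0.0474). This call was lost in 13 of 17 alternatives (adjusted p from 0.0502 to 0.191), including every fit that left out a library except that without C59 24 h replicate 1. *Hoxd8* was at 23.8, 29.2 and 30.8 CPM in C59 and at 22.4, 23.7 and 23.0 CPM in DMSO, lay higher without overlap, as for 12.8% of all genes, and did not pass (0.28 ± 0.09, edgeR adjusted p = 0.0994), except without C59 24 h replicate 1 (0.38, 0.0124). *Hoxd1* was lower without overlap, as were 14.9% of all genes, at a log2 fold change of -0.50 ± 0.31 (edgeR adjusted p = 0.375).

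**Figure D4:**
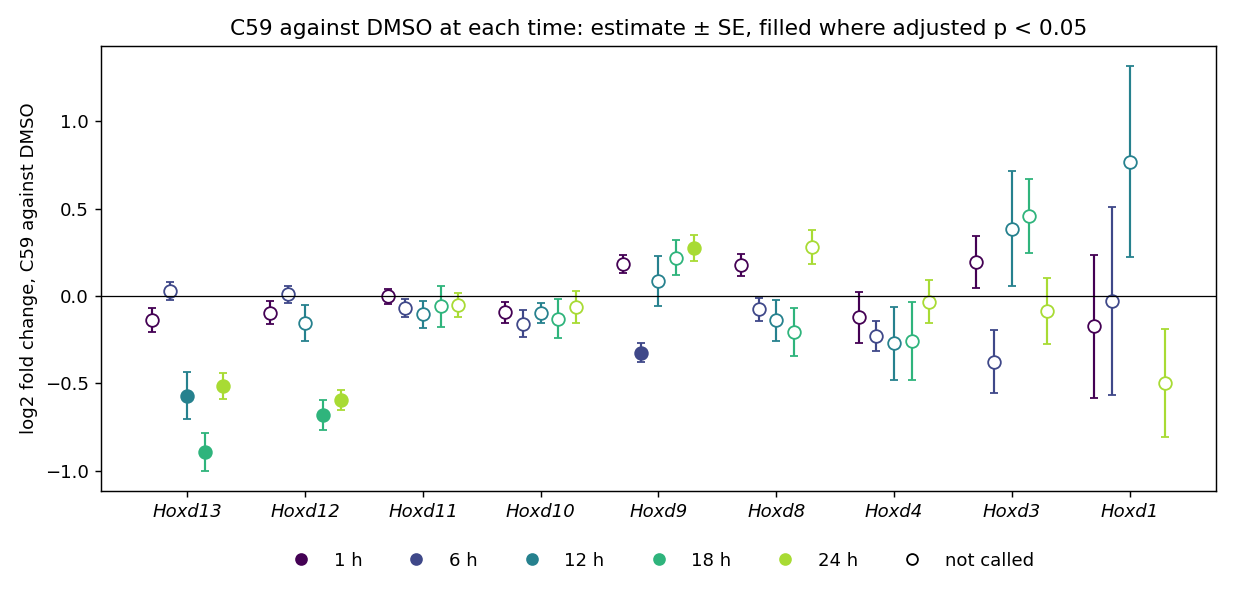
Log2 fold change of C59 against DMSO (vertical axis, estimate ± SE) for each HoxD gene in cluster order (horizontal axis) at 1, 6, 12, 18 and 24 h, with filled points where the adjusted p was below 0.05. *Hoxd13* reaches -0.89 and *Hoxd12* -0.68 at 18 h, and *Hoxd11* stays close to 0, at -0.06 at 18 h.

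*Hoxd11* and *Hoxd10* bounded the genes that were lower late. For *Hoxd11* the 95% interval of the log2 fold change ran from -0.32 to 0.20 at 18 h and from -0.19 to 0.09 at 24 h. At 24 h that interval lay above the estimate of *Hoxd12*, next to it in the cluster. At 18 h *Hoxd11* was at 149, 148 and 115 CPM in C59 and at 147, 135 and 153 CPM in DMSO, and at 24 h at 113, 123 and 123 CPM in C59 and at 125, 114 and 134 CPM in DMSO. *Hoxd10* had log2 fold changes of -0.09, -0.16, -0.10, -0.13 and -0.06 at the 5 times (edgeR adjusted p from 0.17 to 0.744). At 24 h it was at 43.8, 57.9 and 49.5 CPM in C59 and at 54.0, 50.5 and 54.0 CPM in DMSO. The median log2 fold change of the HoxD genes tested was -0.09, -0.08, -0.11, -0.17 and -0.06 at 1, 6, 12, 18 and 24 h, against 0.00, 0.01, 0.02, 0.00 and 0.00 over all genes.

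Markers of other cell types differed in the same libraries. Over all genes, 47.5%, 7.08% and 6.44% passed in either direction at 12, 18 and 24 h. At 12 h 6 of 7 ectoderm markers were higher in C59, and their summed FPKM was 143 to 194 against 93.4 to 107 in DMSO. At 18 h 4 of 7 were higher (129.5 to 164 FPKM against 99.9 to 110.3) and at 24 h 3 of 7 (149.9 to 163 FPKM against 125 to 127). Limb mesenchyme markers summed to 292 to 310.0 FPKM against 492 to 516 at 12 h. They summed to 388 to 416 against 449 to 479 at 18 h and 441 to 472 against 464 to 482 at 24 h. Of 6 tested, 5 were lower and 1 higher at 12 h, 3 lower at 18 h and 1 lower at 24 h. None of these ectoderm or mesenchyme markers was at 0 in any library. The mesenchyme sum includes the BMP target *Msx2*, so it does not measure cell number alone. Endothelium markers were higher at 12 h for 4 of 5 (74.9 to 82.3 FPKM against 55.7 to 62.5), and at 24 h 1 of 5 was lower (54.2 to 58.5 FPKM against 62.1 to 63.3). Of 6 muscle markers, 3 were lower at 18 h (53.6 to 79.4 FPKM against 67.6 to 74.5) and 3 at 24 h (79.2 to 88.3 FPKM against 90.9 to 103), and 2 were higher and 3 lower at 12 h (52.5 to 66.9 FPKM against 35.1 to 45.8). Of 5 somite and axial markers tested, 2 were lower at 12 h, 3 at 18 h and 1 at 24 h. Of 5 blood markers tested, 1 was higher at 12 h and 1 lower at 24 h. The part of all these markers in the lower *Hoxd13* and *Hoxd12* RNA was not tested.

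The difference between the 2 treatments in each step, the change of the C59 effect, was tested over all 30 libraries. It passed for *Hoxd13* between 6 h and 12 h and for *Hoxd12* between 12 h and 18 h. From 6 h to 12 h, *Hoxd13* was the only one of 9 genes that passed, with -0.60 ± 0.16 (edgeR adjusted p = 0.0129), against 12.4% of all genes. In DMSO it rose over this step, and in C59 its log2 fold change was -0.09 ± 0.11 (adjusted p = 0.577), and -0.30 without C59 12 h replicate 3 (0.0187). The change was lost without DMSO 12 h replicate 3 (-0.52, 0.0511) or C59 12 h replicate 1 (-0.47, 0.0501), and was -0.80 without C59 12 h replicate 3 (0.000134). Without that library *Hoxd9* also passed over this step, at 0.59 (adjusted p = 0.00231) in place of 0.41 (0.0767). From 12 h to 18 h, *Hoxd12* was the only one that passed, with -0.54 ± 0.12 (edgeR adjusted p = 0.00151), against 17.7% of all genes. This held in all 18 alternatives, and was -0.36 without C59 12 h replicate 3 (adjusted p = 0.0108). In C59 *Hoxd12* fell by 0.55 ± 0.08 over this step (edgeR adjusted p = 1.56e-05), while in DMSO its log2 fold change was -0.01 ± 0.08. Leaving out C59 12 h replicate 3 also made *Hoxd12* pass from 6 h to 12 h (-0.31, adjusted p = 0.0366), so the step at which *Hoxd12* passed depends on that library.

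From 18 h to 24 h *Hoxd13* rose again in C59, by 0.50 ± 0.11 on the log2 scale (edgeR adjusted p = 0.0013, 32.2% of all genes passing), and its C59 libraries went from 140.3 to 184 CPM up to 201 to 255 CPM without overlap, as for 19.9% of all genes. *Hoxd12* did not pass over this step in C59 (0.07 ± 0.08, edgeR adjusted p = 0.543). The change of effect of *Hoxd13* from 18 h to 24 h was 0.39 ± 0.16 (edgeR adjusted p = 0.102), so its smaller difference at 24 h than at 18 h was not beyond the spread, except without C59 18 h replicate 1 (0.46, adjusted p = 0.048). *Hoxd8* passed over this step, with 0.50 ± 0.16 (edgeR adjusted p = 0.0306, 16.4% of all genes), a call lost in 9 of 18 alternatives, among them that without C59 18 h replicate 3 (0.37, adjusted p = 0.0753). Over the whole day, from 1 h to 24 h, *Hoxd12* was the only gene whose change differed between treatments, with -0.51 ± 0.12 (edgeR adjusted p = 0.0218, 1.97% of all genes), a call lost in 6 of 18 alternatives, and that of *Hoxd13* was -0.38 ± 0.16 (adjusted p = 0.249).

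In C59 alone, 8 of 9 genes passed from 1 h to 24 h, 2 higher and 6 lower, against 53.9% of all genes, 27.6% higher and 26.4% lower. *Hoxd13* rose by 1.21 ± 0.12 and *Hoxd12* by 0.41 ± 0.08 on the log2 scale. *Hoxd11* fell by 0.30 ± 0.08, *Hoxd10* by 0.67 ± 0.09, *Hoxd9* by 1.13 ± 0.11, *Hoxd8* by 0.93 ± 0.11, *Hoxd4* by 1.33 ± 0.21 and *Hoxd3* by 0.89 ± 0.25. The order of the genes by direction was that of DMSO. From 1 h to 6 h, 6 of 9 genes passed in C59, against 32.2% of all genes, and *Hoxd9* fell by 0.80 ± 0.11 and *Hoxd8* by 0.59 ± 0.11, while in DMSO their log2 fold changes over this step were -0.30 ± 0.10 and -0.34 ± 0.11 and did not pass. The difference between the treatments passed for *Hoxd9* (-0.50 ± 0.15, edgeR adjusted p = 0.0423, 5.65% of all genes), was lost in 11 of 12 fits that left out a library, and did not pass for *Hoxd8* (-0.25 ± 0.15, adjusted p = 0.411). From 6 h to 12 h, *Hoxd12* was the only gene that passed in C59, against 37.6% of all genes (0.23 ± 0.08, edgeR adjusted p = 0.0289). Without C59 12 h replicate 3 it was 0.08 (0.413), and it was also lost without C59 6 h replicate 2 (0.0554) or replicate 3 (0.111). From 12 h to 18 h, *Hoxd12* and *Hoxd11* passed, against 22.5% of all genes, and *Hoxd11* fell by 0.31 ± 0.08, but by 0.19 without C59 18 h replicate 3 (adjusted p = 0.0583). Without that library *Hoxd11* passed from 18 h to 24 h (-0.31, adjusted p = 0.00147). Without C59 12 h replicate 3, *Hoxd3* (0.74, adjusted p = 0.0341) and *Hoxd1* (1.28, 0.0262) passed from 6 h to 12 h and *Hoxd8* (-0.38, 0.0225) from 12 h to 18 h, none of which passed over all libraries.

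The genes beside the cluster were read for comparison. *Evx2*, a homeobox gene next to *Hoxd13*, had a DMSO mean of 3.06 CPM ± 0.133 (SD, n = 3) at 1 h and 34.1 ± 1.37 at 24 h, and rose by 3.48 ± 0.17 on the log2 scale (edgeR adjusted p = 2.52e-15). It was lower in C59 over the last 3 times, with log2 fold changes of -0.41 ± 0.15, -0.82 ± 0.11 and -0.48 ± 0.10 (edgeR adjusted p = 0.0473, 0.00478 and 0.0188). The calls at 12 h and 24 h were lost in 4 and 3 of 6 fits that left out a library. Of 5 protein-coding neighbours tested (*Evx2*, *Lnpk*, *Mtx2*, *Hnrnpa3* and *Atp5g3*), the numbers that passed over the 5 times, all lower in C59, were 1, 1, 5, 2 and 1, against 2.75%, 19.6%, 47.5%, 7.08% and 6.44% of all genes in either direction. The calls of *Lnpk* at 1 h and 12 h and of *Mtx2* at 6 h were each lost in 4 of 6 fits that left out a library. *Mtx2*, a mitochondrial import gene, fell by 0.48 at 12 h (edgeR adjusted p = 5.15e-05), and *Hnrnpa3*, an RNA-binding protein gene, by 0.40 at 18 h (0.0352) on the log2 scale, the latter lost in 4 of 6 fits that left out a library (adjusted p from 0.107 to 0.154) and with the replicate block (0.0768).

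HoxA genes act with their HoxD paralogues along the limb, *Hoxa13* with *Hoxd13* in the autopod and *Hoxa11* with *Hoxd11* in the zeugopod. Of 11 HoxA genes tested, the numbers lower in C59 over the 5 times were 0, 2, 3, 1 and 1, against 11.4%, 25.5%, 3.62% and 3.56% of all genes from 6 h on, and 1 was higher, at 6 h. *Hoxa13* had a DMSO mean of 26.1 CPM ± 1.52 (SD, n = 3) at 1 h and 75.3 ± 3.64 at 24 h, and rose by 1.53 on the log2 scale (edgeR adjusted p = 1.35e-10), near the 1.59 of *Hoxd13*. It was higher in C59 at 6 h (0.32 ± 0.06, edgeR adjusted p = 0.00279) and lower at 24 h (-0.70 ± 0.08, 0.000321). At 12 h it did not pass over all libraries (-0.11 ± 0.13, edgeR adjusted p = 0.496) and did without C59 12 h replicate 3 (-0.30, 0.00857). At 18 h it was at -0.50 ± 0.13 (edgeR adjusted p = 0.052), and it passed in 7 alternatives, among them DESeq2 (0.00876) and the fit without C59 18 h replicate 3 (-0.37, 0.00797). *Hoxa11* passed at 3 times at which its paralogue *Hoxd11* did not. It fell by 0.40 ± 0.06, 0.65 ± 0.08 and 0.62 ± 0.11 at 6, 12 and 18 h (edgeR adjusted p = 0.000372, 7.67e-05 and 0.0117), and was at -0.07 ± 0.08 at 24 h (0.694). The call at 18 h was lost in 5 alternatives, the 3 limma fits on FPKM (adjusted p from 0.111 to 0.161) and those without DMSO 18 h replicate 1 (0.0585) or replicate 3 (0.0681). *Hoxa10* was lower at 12 h only (-0.22, edgeR adjusted p = 0.0105), a call lost in 6 alternatives (0.0516 to 0.0836), *Hoxa9* at no time, and these differences between paralogues were not tested.

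**Figure D5:**
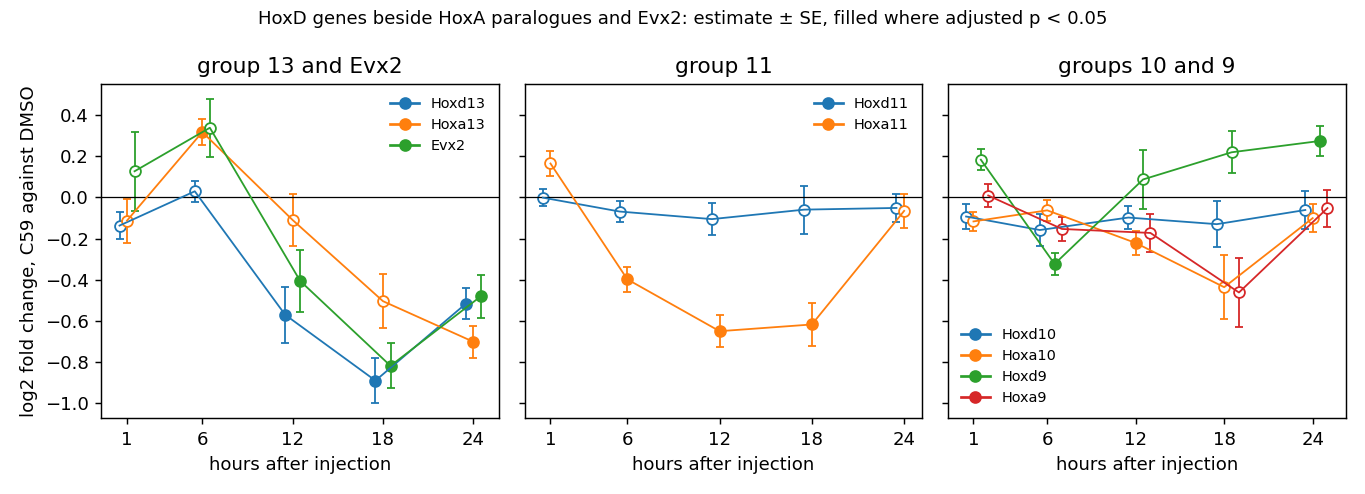
Log2 fold change of C59 against DMSO (vertical axis, estimate ± SE) against hours after injection (horizontal axis) in 3 panels, *Hoxd13* with *Hoxa13* and *Evx2*, *Hoxd11* with *Hoxa11*, and *Hoxd10* and *Hoxd9* with *Hoxa10* and *Hoxa9*, filled where the adjusted p was below 0.05. *Hoxd13* and *Evx2* are lowest at 18 h, at -0.89 and -0.82, *Hoxa13* is lowest at 24 h, at -0.70, and *Hoxa11* is lowest at 12 h, at -0.65.

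Across the 10 group means of log2 CPM, *Hoxd13* and *Hoxd12* had a Pearson correlation of 0.897, *Hoxd13* and *Hoxd9* of -0.909, and *Hoxd9* and *Hoxd8* of 0.937. The points share libraries and the course of time, so these values are a description. Among 12540 genes, those most like *Hoxd13* included *Rarres1* (0.949) and *Hunk* (0.944), and those most like *Hoxd12* were *Hoxa13* (0.946), *Kifap3* (0.928) and *Spast* (0.914). The gene most like *Hoxd11* was *C1galt1* (0.939), like *Hoxd10* *Supt5* (0.953), like *Hoxd9* *Eno3* (0.972), like *Hoxd8* *Paf1* (0.967), like *Hoxd4* *Recql5* (0.972) and like *Hoxd3* *Shisa7* (0.949).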

How the data were processed

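Polyadenylated RNA of 30 forelimb bud libraries was read from both deposited tables. The authors used Cutadapt 1.16 for trimming and STAR 2.7.0e for mapping, to mm10 and their own gene annotation. The deposited counts are raw fragments per gene that STAR wrote during mapping, without X, Y and mitochondrial genes, and the strand of counting is not given in the sources used here. The deposited FPKM values were computed by the authors with cufflinks 2.2.1, with the libraries set as unstranded.

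Groups came from the sample labels. Protein-coding genes of the count table were tested with the edgeR 4.0.16 quasi-likelihood test (R 4.3.3), with TMM factors and filterByExpr (count of at least 10, total of at least 15). C59 was compared with DMSO on the 6 libraries of each time, 13076 to 13675 genes. Steps in time and changes of the C59 effect came from a fit over all 30 libraries (14039 genes, biological coefficient of variation 7.97%). Genes passed at a Benjamini-Hochberg adjusted p below 0.05 over all genes tested. SE stands after ± unless SD is named, and intervals are 95%. In edgeR, SE was the absolute log2 fold change divided by the square root of its F statistic, and the intervals used this SE. CPM used TMM-scaled library sizes. Libraries held 18188636 to 38974885 counts, and *Hoxd1* had 4 to 28 of them. Scripts were tested on simulated data.

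Alternatives were DESeq2 1.42.0, limma 3.58.1 on log2(FPKM + 1) and log2(FPKM + 0.1), other scaling and filters, all genes, a shared spread, only the libraries compared, a replicate block, an added fold threshold of 1 on the log2 scale, and each library left out. Other genes named are those of the fixed HoxA, HoxB, HoxC, TALE cofactor, neighbour, limb regulator and marker lists that were called or lay at an extreme, and, for each HoxD gene with a mean of at least 1 CPM, the 3 protein-coding autosomal genes with the highest Pearson correlation over the group means; some of the genes so chosen are not reported here. The HoxD genes and these lists were chosen with earlier results of these data known. Promoter sequences are from RefSeq, and all 9 genes matched. The deposited start coordinates count from 0, and 1 was added. Replicates of a group differed by more than counting noise (over 30 pairs, chi-square divided by its degrees of freedom was 3.31 to 42.2).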

Additional observations from a re-analysis of the deposited data

Results flagged for a closer look

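The effect of C59 on 4 HoxD genes differed between times by a test of the difference itself, in the fit over all 30 libraries (edgeR, Benjamini-Hochberg adjusted). *Hoxd9* changed by -0.50 ± 0.15 from 1 h to 6 h (adjusted p = 0.0423). *Hoxd13* changed by -0.60 ± 0.16 from 6 h to 12 h (0.0129). *Hoxd12* changed by -0.54 ± 0.12 from 12 h to 18 h (0.00151) and by -0.51 ± 0.12 from 1 h to 24 h (0.0218). *Hoxd8* changed by 0.50 ± 0.16 from 18 h to 24 h (0.0306). The *Hoxd12* value from 12 h to 18 h held in all 18 alternatives, and each of the others was lost in at least 2 fits that left out a library.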

How the results depend on the processing

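Every value given for a HoxD gene kept its direction where it had passed, in 2629 values under the alternatives. Of these, 70 no longer passed, 36 newly passed and 0 passed in the opposite direction. For the other genes chosen by the naming rule, 206 of 2715 no longer passed and 81 newly passed. With the added threshold of 1 on the log2 scale, 0 HoxD genes passed for C59 against DMSO at 6, 12, 18 and 24 h, in place of 1, 1, 2 and 3. Without a filter on low counts, 1 passed at 1 h in place of 0. With limma on log2(FPKM + 0.1), 0 genes passed at 6 h and 12 h and 1 at 24 h, and without a filter on FPKM the numbers were 0 at 12 h and 1 at 24 h. With limma on log2(FPKM + 1), 0 genes passed for the change of effect from 1 h to 6 h, 18 h to 24 h and 1 h to 24 h, in place of 1 each. On only the libraries of the groups compared, 6 passed in DMSO from 1 h to 6 h in place of 3 and 4 from 18 h to 24 h in place of 1, 0 in C59 from 6 h to 12 h in place of 1, 1 from 12 h to 18 h and 1 from 18 h to 24 h in place of 2 each, and 0 for the change of effect from 18 h to 24 h. The cause of these differences was not tested.

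Leaving out 1 library at a time gave 0 to 1 genes for C59 against DMSO at 1 h, and then 1 to 2, 1 to 2, 2 to 2 and 2 to 4 at the later times. It gave in DMSO 2 to 3 from 1 h to 6 h, 1 to 3 from 6 h to 12 h, 0 to 1 from 12 h to 18 h, 1 to 2 from 18 h to 24 h and 7 to 8 from 1 h to 24 h, and in C59 6 to 7, 0 to 3, 1 to 3, 2 to 3 and 8 to 8. For the change of effect it gave 0 to 1 from 1 h to 6 h, 0 to 3 from 6 h to 12 h, 1 to 2 from 12 h to 18 h, 0 to 2 from 18 h to 24 h and 0 to 1 from 1 h to 24 h. At 6 h the second gene was *Hoxd10*, without C59 6 h replicate 1 (-0.27, edgeR adjusted p = 0.0207). At 12 h, *Hoxd12* joined without C59 12 h replicate 3.

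Replicate numbers were shared between groups, and only 1 of 15 same-number correlations of deviations was above 0.1 (-0.133 to 0.103). These values gave no sign of pairing by number but cannot exclude it, since a shared collection or preparation need not show in them. With the replicate block, 2 HoxD genes passed at 12 h in place of 1, the second being *Hoxd4* (-0.26, edgeR adjusted p = 0.0454), and 2 at 24 h in place of 3, without *Hoxd9*. In the other comparisons the count with the block was that without it.

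With 3 libraries per group, small differences in *Hoxd3* and *Hoxd4* lay within the spread between libraries, and *Hoxd1* had too few counts to resolve one. The overlapping *Hoxd3*, *Hoxd4* and *Hoxd8* counts cannot be told apart from reads of neighbours. Sex was unbalanced at 1 h and 6 h, and its make-up also differed between treatments at 18 h and 24 h. Summed Y-linked FPKM at 18 h was 0.0940, 21.0 and 0.0195 in DMSO and 0.0682, 19.7 and 24.2 in C59. At 24 h it was 20.1, 0.0147 and 19.6 in DMSO and 20.1, 25.0 and 19.3 in C59. The vehicles differed between treatments as well. Whole buds give no position, so levels in the distal and proximal bud cannot be told apart.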

Other observations

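Genes of the HoxB and HoxC clusters were read in the same comparisons. Of the 8 HoxB genes tested at 12 h, 2 were lower in C59, against 25.5% of all genes, *Hoxb2* (-0.96 ± 0.28 on the log2 scale, edgeR adjusted p = 0.0167) and *Hoxb3* (-0.44 ± 0.11, 0.00899), and 0 passed at the other times. The *Hoxb2* call was lost in 3 of 6 fits that left out a library, among them that without C59 12 h replicate 3 (0.0541), and in DESeq2 (0.0591). Of the HoxC genes tested, 1 of 7 passed at 1 h, 2 of 7 at 6 h, 3 of 9 at 12 h and 1 of 9 at 18 h. Over all genes, 2.75%, 19.6%, 47.5% and 7.08% passed at these times. *Hoxc5* was lower at 6 h (-0.46 ± 0.11, edgeR adjusted p = 0.00865), 12 h (-0.66 ± 0.09, 0.000161) and 18 h (-0.46 ± 0.12, 0.0499). The call at 18 h was lost in 11 alternatives, 5 of them fits that left out a library (0.0586 to 0.171). The call at 6 h was lost in the 3 limma fits on FPKM. *Hoxc13*, known for its role in hair and nails, was higher at 12 h (1.22 ± 0.19, 0.000484), when ectoderm markers were also higher. From 1 h to 24 h in DMSO, 5 of 9 HoxB genes were lower and 0 higher, and of 9 HoxC genes 2 were lower and 4 higher, against 23.8% of all genes lower and 26.8% higher. At 24 h 0 HoxB and 0 HoxC genes passed for C59 against DMSO.

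TALE cofactors, homeodomain proteins that bind DNA with Hox proteins, were read as well. Of 9 tested, 0, 1, 4, 1 and 1 passed at the 5 times, against 2.75%, 19.6%, 47.5%, 7.08% and 6.44% of all genes. The 1 at 6 h was lower, and of the 4 at 12 h, 3 were higher and 1 lower. At 12 h *Pbx2* (0.10 ± 0.04, edgeR adjusted p = 0.0447) and *Pknox2* (0.74 ± 0.10, 0.000189) were higher in C59 and *Pknox1* (-0.39 ± 0.05, 2e-04) lower, of which the *Pbx2* call was lost in 5 of 6 fits that left out a library. *Meis2*, a marker of the proximal bud, was higher at 18 h (0.40 ± 0.10, 0.0466), a call lost in 5 of 6 fits that left out a library, and *Pbx3* was higher at 24 h (0.32 ± 0.07, 0.0207), a call lost in 3 of 6 such fits.

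Of 22 limb regulators, 9 of those tested were lower and 5 higher at 6 h, 14 lower and 3 higher at 12 h, 7 lower and 2 higher at 18 h and 6 lower and 1 higher at 24 h, where 19.6%, 47.5%, 7.08% and 6.44% of all genes passed in either direction. At 24 h 21 of these regulators were tested, and 3.56% of all genes were lower and 2.88% higher. The 6 lower regulators included *Sall1* (-0.46 ± 0.07, edgeR adjusted p = 0.00222), *Sall3* (-0.35 ± 0.10, 0.0476), *Sall4* (-0.71 ± 0.16, 0.0209), *Epha3* (-0.51 ± 0.07, 0.00108) and *Fgf10* (-0.43 ± 0.10, 0.0203). *Bmp7* was higher (0.30 ± 0.05, 0.00725). Of the fits that left out a library, the call was lost in 5 of 6 for *Sall3*, 3 of 6 for *Sall4* and *Fgf10* and 2 of 6 for *Bmp7*. *Shh*, which is made in the posterior bud where *Hoxd13* and *Hoxd12* are also used, had a log2 fold change of -3.32 at 18 h (0.000623), and its target *Gli1* was at -0.87 ± 0.16 (0.0155), a call lost in 6 alternatives, 3 of them fits that left out a library (0.0626 to 0.0676). At 6 h *Gli1* was higher in C59 (0.23 ± 0.06, edgeR adjusted p = 0.0204), which was lost in 4 of 6 fits that left out a library.

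The antisense gene *Hoxd3os1* was lower in C59 at 6 h (-1.01 ± 0.27, edgeR adjusted p = 0.0202), and *Haglr*, another long noncoding RNA gene of the cluster, passed at no time.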
